A study of Mus musculus with 6 samples.

Results

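CA1 pyramidal neurons are the 287 of 12823 hippocampal cells to which the authors gave the class CA1 in the deposited table. The cells came from 6 mice of the APP/PS1 strain B6.Cg-Tg(APPswe,PSEN1dE9)85Dbo/Mmjax, all 10 weeks old and all carrying the transgenes for mutant amyloid precursor protein and presenilin. Of these mice, 3 had been treated with an antisense oligonucleotide (ASO) and 3 with phosphate buffered saline (PBS). The series title names reduction of IDOL, the ubiquitin ligase encoded by Mylip. The controls received saline rather than another oligonucleotide, so effects of the target and of any oligonucleotide cannot be told apart. The labels pair no mice. The number of a mouse within its group, as used below, is its order among the samples and not a label. The hippocampus was dissociated to whole cells and profiled by Drop-Seq, in which barcoded beads capture single cells in droplets and each transcript is tagged at its 3' end with a unique molecular identifier (UMI) that is counted.

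CA1 pyramidal neurons are the excitatory output cells of the hippocampus proper. They receive Schaffer collateral input from CA3 and direct input from the entorhinal cortex, and project to the subiculum and beyond. They use glutamate, hold a large postsynaptic calcium and calmodulin machinery, and are among the neurons lost early in Alzheimer's disease. The APPswe and PSEN1dE9 transgenes of this strain are expressed from a vector built on the mouse prion protein gene, Prnp, which directs them mainly to the central nervous system.

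Libraries held 12616 cells after removal of 207 called doublets, of which 2 were CA1 neurons. The 285 CA1 neurons kept were 73, 65 and 31 cells in the ASO mice and 36, 48 and 32 cells in the PBS mice. Their summed UMIs were 90875, 82631 and 35792 in the ASO mice and 40939, 54862 and 42351 in the PBS mice. The median CA1 neuron had 1190, 1152 and 1016 UMIs in the ASO mice and 1081, 1013 and 1405 UMIs in the PBS mice. In all libraries together 8 barcodes occurred more than once, and 0 of them belonged to a CA1 neuron. Levels below are CPM, the UMIs summed over the CA1 neurons of a mouse and scaled to an equal total, and 3 UMIs corresponded to 33.0 to 83.8 CPM depending on the mouse.

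The class label was first set against marker genes. The 5 class markers summed to 3021 CPM in CA1 neurons, against 2686 CPM in CA2 and CA3 neurons, 2307 CPM in dentate neurons and 2341 CPM in subiculum neurons. The summed class markers therefore did not set CA1 apart from the other excitatory neurons. Neurod6 alone of the 5 was low in dentate and in CA2 and CA3 neurons. The CA2 and CA3 class held only 47 cells, with 3 in ASO mouse 3 and 2 in PBS mouse 3. Its mean levels over mice, here and below, are therefore uncertain, and Neurod6 rested there on 3 UMIs. Markers of the CA1 area (Wfs1, Fibcd1, Spink8, Mpped1, Pou3f1 and Man1a) summed to 1388 CPM in CA1 neurons. The same sum was 153 CPM in CA2 and CA3, 50.9 CPM in dentate and 418 CPM in subiculum neurons. Of all classes, CA1 neurons had the highest sum, but not every member was confined to them. Man1a had 260 CPM in CA1 neurons, against 284 CPM in microglia and macrophages. The other members had their highest class mean in CA1 neurons. For Pou3f1 this was 164 CPM, close to 138 CPM in the deposited class Polydendrocyte. Spink8 rested on 26 UMIs in CA1 neurons, with 0 in PBS mouse 3. The classes were made from the same counts, so these levels describe the class and are no test of it.

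**Figure D1:**
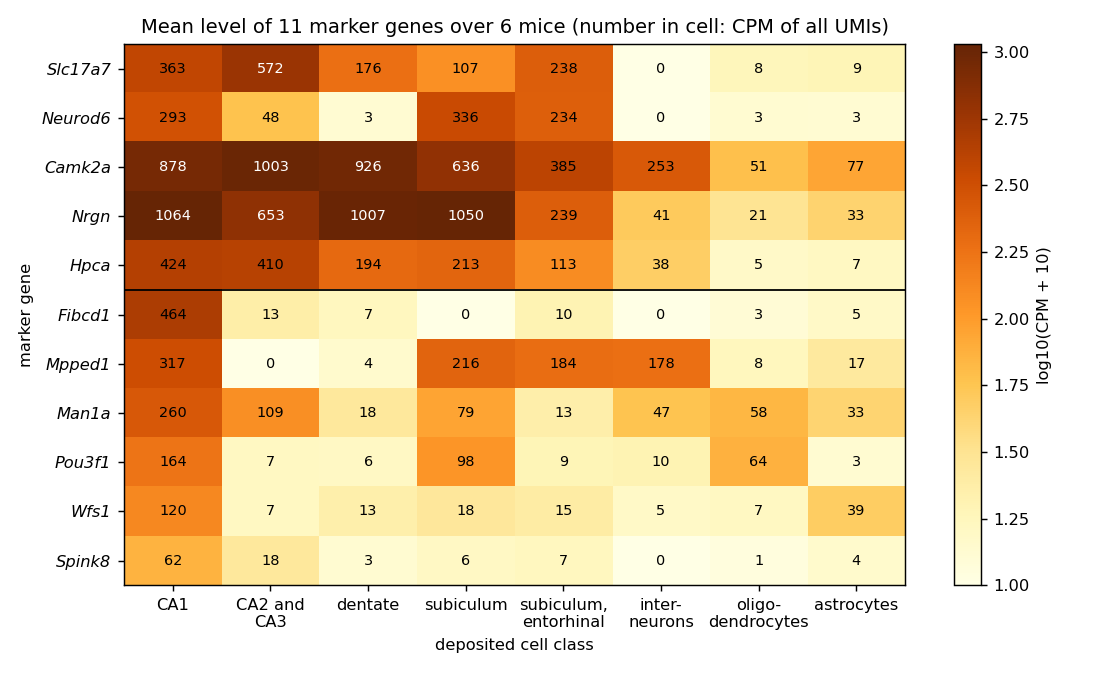
Mean level over 6 mice of the 5 class markers (above the line) and 6 CA1 area markers (below the line) in 8 deposited classes. Colour is log10(CPM + 10), and the number in each field is the CPM of all UMIs. Class markers were also counted in the other excitatory neurons. Neurod6 was low in dentate (3.12 CPM) and in CA2 and CA3 neurons (48.0 CPM), but had 336 CPM in subiculum neurons. Fibcd1 stood at 464 CPM in CA1 neurons and at most 13.3 CPM in the other classes drawn.

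Each class marker was present in every mouse. Nrgn, which encodes the postsynaptic calmodulin-binding protein neurogranin, had 75, 108 and 51 UMIs in the ASO mice and 32, 46 and 51 UMIs in the PBS mice, and averaged 1064 CPM. Camk2a, the alpha subunit of calcium/calmodulin-dependent kinase II, had 81, 71 and 28 UMIs in the ASO mice and 48, 43 and 33 UMIs in the PBS mice. Its mean level was 878 CPM in CA1 neurons, against 1003 CPM in CA2 and CA3 neurons. Hpca, the calcium sensor hippocalcin, averaged 424 CPM in CA1 neurons, and 410 CPM in CA2 and CA3 neurons. Slc17a7, the vesicular glutamate transporter VGLUT1, averaged 363 CPM in CA1 neurons, and 572 CPM in CA2 and CA3 neurons, and was listed at 0 in interneurons. Neurod6, a basic helix-loop-helix transcription factor of pyramidal neurons, averaged 293 CPM in CA1 and 336 CPM in subiculum neurons, against 48.0 CPM in CA2 and CA3 neurons and 3.12 CPM in dentate neurons. Neurod6 varied most between mice among the 5 markers, with 16, 29 and 15 UMIs in the ASO mice and 3, 16 and 19 UMIs in the PBS mice.

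Single cells were too shallow to show all markers. With each cell thinned to 500 UMIs, 194 of 285 CA1 neurons (68.1%, exact binomial 95% interval 62.3 to 73.4%) had a UMI of a class marker, and 89.5% had one before thinning. The share in oligodendrocytes, which should lack these genes, was 4.43% thinned and 9.0% unthinned, at a median of 1037 UMIs per cell against 1152 in CA1 neurons. A UMI of a CA1 area marker was seen at 500 UMIs in 46.7% of CA1 neurons (40.8 to 52.6%), against 6.38% of CA2 and CA3 neurons, 2.59% of dentate neurons, 18.3% of subiculum neurons and 6.97% of oligodendrocytes. No cell was shallow enough to be left out by the thinning. At full depth 30 CA1 neurons (10.5%) had 0 class markers, 91 (31.9%) had 0 area markers and 13 (4.56%) had neither. These intervals and all others given here cover counting error only.

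Markers of other cells were set beside those of the class. Interneuron markers summed to 37.5 CPM in CA1 neurons, against 5770 CPM in interneurons, and dentate granule markers to 105 CPM, against 1785 CPM in dentate neurons. CA3 markers summed to 425 CPM in CA1 neurons, against 837 CPM in CA2 and CA3 neurons, and most of this was Cpne4, which had 316 CPM in CA1 neurons and 304 CPM in CA2 and CA3 neurons. The 6 CA2 area markers summed to 179 CPM in CA1 neurons, against 274 CPM in CA2 and CA3 neurons. Their sum was higher in Cajal-Retzius (923 CPM), dentate (586 CPM) and subiculum neurons (587 CPM). Most of it there was Pcp4, at 865, 523 and 508 CPM. The summed list therefore did not mark the joint CA2 and CA3 class here. Members of the list differed. Amigo2 had 4.07 CPM in CA1 neurons and 189 CPM in CA2 and CA3 neurons, and Rgs14 had 69.0 and 0 CPM. These levels rested on few UMIs, with 10 of Amigo2 in the 47 CA2 and CA3 neurons and 21 of Rgs14 in CA1 neurons. In CA1 neurons the sum stood at 132, 109 and 168 CPM in the ASO mice and 73.3, 146 and 449 CPM in the PBS mice, PBS mouse 3 being highest. Subiculum markers summed to 345 CPM in CA1 neurons, against 847 CPM in subiculum neurons. Astrocyte markers summed to 396 to 714 CPM in the ASO mice and 529 to 635 CPM in the PBS mice, and oligodendrocyte markers to 615 to 891 CPM in the ASO mice and 378 to 953 CPM in the PBS mice, against 29676 CPM in astrocytes and 82860 CPM in oligodendrocytes. List members at 0 were Coch (CA3), Tdo2 (dentate), Mag (oligodendrocytes), Pdgfra, Cspg4 and C1ql1 (oligodendrocyte precursors) and Rarres2 (ependyma). The other members of these lists had UMIs in CA1 neurons. Coch was highest in fibroblast-like cells, at 538 CPM, against 84.9 CPM on 3 UMIs in CA2 and CA3 neurons. UMIs of at least 2 different oligodendrocyte, astrocyte, microglia or endothelial markers were held by 28, 28 and 8 CA1 neurons of the ASO mice and 20, 14 and 11 of the PBS mice. They were 38.4, 43.1 and 25.8% of the CA1 neurons of the ASO mice and 55.6, 29.2 and 34.4% of those of the PBS mice. Astrocyte markers averaged 549 CPM in CA1, 503 CPM in dentate, 665 CPM in subiculum and 703 CPM in CA2 and CA3 neurons. Oligodendrocyte markers averaged 673, 751, 728 and 455 CPM in the same classes. The CA1 neurons with at least 2 such markers are called mixed cells below, but whether they were mixed was not tested. With these cells left out, the comparison of treatments below again gave 0 called genes. That count came from fewer cells, so it cannot show that the cells left out had no effect.

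A cell of ASO mouse 1 stood apart. Of its 1934 UMIs, 848 (43.8%) came from haemoglobin genes, and it held 3 UMIs of class markers, 4 of area markers and 0 of Meg3, the long noncoding RNA abundant in neurons. Haemoglobin genes summed to 9387, 206 and 83.8 CPM in the CA1 neurons of the ASO mice and 122, 72.9 and 94.4 CPM in those of the PBS mice. The high value of ASO mouse 1 came from that cell, whose share of the 853 haemoglobin UMIs was 848. Ttr, the transthyretin transcript of choroid plexus, stood at 2487, 1597 and 4442 CPM in the ASO mice and 4348, 4757 and 23.6 CPM in the PBS mice, so PBS mouse 3 was low. This was not particular to CA1 neurons, which ranked 13 of 17 classes at a mean of 2943 CPM. Dentate neurons averaged 2946 CPM and oligodendrocytes 3362 CPM, with the lowest mouse at 41.2 and 56.4 CPM.

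CA1 neurons were next described against all other classes. Of 2239 genes with at least 100 CPM in CA1 neurons, 221 had their highest class mean there, and 6 of these lay at least 2-fold above the next class. Fibcd1, a transmembrane receptor that binds acetylated sugars, had 464 ± 129 CPM (SD, n = 6 mice), from 335 to 671 CPM, and 167 UMIs in 90 cells. The next class was choroid plexus at 16.7 CPM, and with that small class set to its floor of 3 UMIs Fibcd1 was at least 9.08-fold higher in CA1 neurons. Ndst3, a heparan sulfate sulfotransferase, had 324 CPM in CA1 neurons, against 117 CPM in Cajal-Retzius neurons. Mal2, a membrane proteolipid of vesicle transport, had 375 CPM in CA1 neurons, against 153 CPM in the subiculum and entorhinal class. Galnt16, which starts O-glycosylation, had 262 CPM in CA1 neurons, against 115 CPM in choroid plexus, and Sertm1, a small transmembrane protein, had 129 CPM in CA1 neurons, against 59.1 CPM in dentate neurons. Wfs1, the endoplasmic reticulum protein wolframin, had 120 CPM in CA1 neurons, against 42.2 CPM in Cajal-Retzius neurons. Its level was uneven, from 23.6 to 230 CPM over the 6 mice, on 47 UMIs in all.

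The promoters of 3 such genes are shown because Fibcd1 and Wfs1 were the genes furthest above the next class, and Nrgn was the class marker with the most UMIs. Each runs from 250 bases before to 50 bases after the RefSeq transcript start in GRCm38.p6, 5' to 3' on the gene's strand. Capitals mark the E-box CAGATG on either strand, a motif bound by NeuroD family factors, to which Neurod6 belongs. Positions count from 0 at the first transcribed base.
Fibcd1 (chr2:31845956-31846255, minus strand): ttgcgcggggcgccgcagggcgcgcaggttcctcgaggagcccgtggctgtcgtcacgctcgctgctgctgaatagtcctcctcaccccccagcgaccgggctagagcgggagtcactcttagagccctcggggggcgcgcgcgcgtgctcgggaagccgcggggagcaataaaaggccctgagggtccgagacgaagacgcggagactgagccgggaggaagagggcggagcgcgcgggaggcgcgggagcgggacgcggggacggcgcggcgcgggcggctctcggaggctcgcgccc
Wfs1 (chr5:36988933-36989232, minus strand): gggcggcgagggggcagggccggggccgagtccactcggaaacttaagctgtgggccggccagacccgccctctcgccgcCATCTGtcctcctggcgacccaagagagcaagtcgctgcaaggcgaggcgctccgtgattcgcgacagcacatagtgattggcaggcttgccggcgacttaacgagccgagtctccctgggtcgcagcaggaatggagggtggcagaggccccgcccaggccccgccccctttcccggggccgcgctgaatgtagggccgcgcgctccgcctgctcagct
Nrgn (chr9:37552696-37552995, minus strand): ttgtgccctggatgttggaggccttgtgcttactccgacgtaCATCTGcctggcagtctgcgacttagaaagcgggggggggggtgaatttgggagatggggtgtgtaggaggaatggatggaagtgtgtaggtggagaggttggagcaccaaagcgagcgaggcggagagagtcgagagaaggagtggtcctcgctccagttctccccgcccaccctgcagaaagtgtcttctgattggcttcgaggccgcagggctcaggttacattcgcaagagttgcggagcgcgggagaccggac
The Wfs1 window held this E-box at position -170 and the Nrgn window at position -208, both as CATCTG on the printed strand, and the Fibcd1 window held none. Of 32851 promoters of the same length, 17.2% held CAGATG on either strand. Among the class markers and the genes chosen for their ratio to the next class, 16 had windows, and 5 of these 26 windows (19.2%) held it, a share near that of all promoters. None of the 3 windows held TATAAA, present in 13.6% of promoters, or the full cAMP response element TGACGTCA, present in 1.79%, searched on both strands. A match describes the letters and is not a shown binding site.

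Further genes with their highest class mean in CA1 neurons lay nearer to the next class. Atp2b1, a plasma membrane calcium pump, had 4322 ± 389 CPM (SD, n = 6 mice) in CA1 neurons, against 2723 CPM in dentate and 1249 CPM in subiculum neurons. Arf1, a GTPase of Golgi traffic, had 466 CPM in CA1 neurons, against 257 CPM in dentate neurons. Kcnab2, a beta subunit of voltage-gated potassium channels, had 247 CPM in CA1 neurons, against 145 CPM in CA2 and CA3 neurons. The bone morphogenetic protein antagonist Chrd had 108 CPM in CA1 neurons, against 66.6 CPM in the subiculum and entorhinal class. Galnt9, of the same enzyme family as Galnt16, had 206 CPM in CA1 neurons, against 131 CPM in the subiculum and entorhinal class. B3gat1, which makes the HNK-1 carbohydrate, had 215 CPM in CA1 neurons, against 133 CPM in interneurons.

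Against dentate granule neurons, 240 genes were higher in CA1 neurons with no overlap between the mice of the classes, and 269 were lower, of 2758 genes with at least 100 CPM in either class. Besides Neurod6 and Fibcd1, the genes furthest above were Mpped1, a metallophosphoesterase domain protein (317 against 4.10 CPM), and Nov, a secreted matricellular protein (212 against 2.82 CPM). Cpne7, a calcium-dependent phospholipid binding copine, had 580 against 13.0 CPM, and Sv2b, a synaptic vesicle glycoprotein, had 546 against 12.8 CPM. Furthest below were Stxbp6, a SNARE binding protein (13.8 CPM in CA1 neurons, against 553 CPM in dentate neurons), Sema5a, an axon guidance protein (11.96 against 467 CPM), and Prox1, the homeobox factor of granule cells (12.4 against 428 CPM). C1ql2, a secreted protein of mossy fibre synapses, had 15.1 CPM in CA1 neurons, against 407 CPM in dentate neurons, and the vesicle protein gene Synpr had 21.5 against 547 CPM.

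Subiculum neurons were taken next. Of 2767 genes with at least 100 CPM in either class, 133 were higher and 114 lower in CA1 neurons with no overlap between the mice. Fibcd1 had 167 UMIs in CA1 neurons and 0 in subiculum neurons, which made it at least 52.6-fold higher in CA1 neurons against the floor of 3 UMIs over all subiculum neurons. Bcl11b, the zinc finger transcription factor CTIP2, had 447 CPM in CA1 neurons, against 15.8 CPM in subiculum neurons. Nnat, the proteolipid neuronatin, had 310 against 16.2 CPM, and Dcn, the extracellular proteoglycan decorin, had 277 against 15.6 CPM. Lmo3, a LIM-only transcriptional cofactor, had 206 CPM in CA1 neurons, against 14.7 CPM in subiculum neurons. In the other direction, Stmn1, the microtubule destabilising protein stathmin, had 101 CPM in CA1 neurons, against 1128 CPM in subiculum neurons, and Nrep had 22.9 against 504 CPM. Chrm2, the M2 muscarinic acetylcholine receptor, had 12.4 against 156 CPM, and Cux2, a homeobox factor, had 12.2 against 138 CPM. Ddit4l had 0 UMIs in CA1 neurons and 39 in subiculum neurons.

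**Figure D2:**
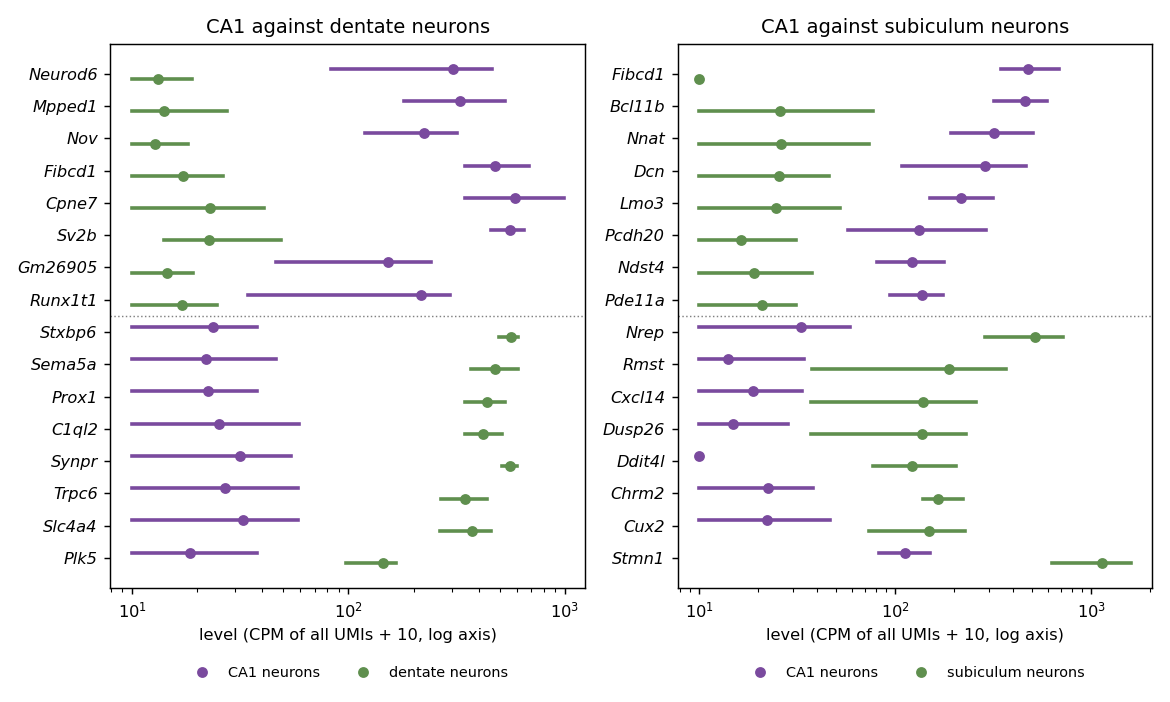
Level of the 8 genes furthest above and the 8 furthest below (under the dotted line) in CA1 neurons against dentate neurons (left) and subiculum neurons (right). Points are means over 6 mice and bars run from the lowest to the highest mouse, on a log axis of CPM + 10. The genes were chosen for bars that do not overlap, so the gap is a description.

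Prnp was among the most counted genes of CA1 neurons. It had 508, 520 and 203 UMIs in the ASO mice and 155, 317 and 173 UMIs in the PBS mice, a mean of 5201 CPM. Of 17 classes only the subiculum and entorhinal class was above it, at 5326 CPM, and microglia and macrophages were lowest at 139 CPM. The transgene vector carries untranslated sequence of Prnp, so UMIs of transgene transcripts and of the mouse's own Prnp cannot be told apart in this table. App averaged 2541 ± 565 CPM in the ASO mice and 2153 ± 397 CPM in the PBS mice (SD, n = 3 each).

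The targeted gene was scarce in CA1 neurons. Mylip had 4, 5 and 0 UMIs in the ASO mice and 2, 4 and 3 UMIs in the PBS mice. Together these were 9 of 209298 UMIs in the ASO mice (43.0 CPM, exact Poisson 95% interval 19.7 to 81.6) and 9 of 138152 UMIs in the PBS mice (65.1 CPM, 29.8 to 124). The mean difference over mice was -29.4 CPM (exact permutation test, two-sided p = 0.2, 0.5 adjusted over 5 comparisons), and -11.9 CPM without ASO mouse 3, in which no Mylip UMI was seen and 3 UMIs would make 83.8 CPM. With 3 mice a group the smallest p this test can give is 0.1. A difference in Mylip was not detectable in CA1 neurons at this depth. CA1 neurons ranked 4 of 17 classes for Mylip at a mean of 49.5 CPM, and first among the neurons. Microglia and macrophages, at 277 CPM, fibroblast-like cells at 137 CPM and mural cells at 69.1 CPM stood above them, and subiculum neurons at 18.2 CPM and dentate neurons at 9.54 CPM below.

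The number and state of CA1 neurons were compared between treatments. They made up 2.59, 3.10 and 1.77% of cells in the ASO mice and 1.98, 2.38 and 1.52% in the PBS mice. The groups overlapped, and the means of 2.48 ± 0.669% in the ASO mice and 1.96 ± 0.434% in the PBS mice (SD, n = 3 each) did not differ beyond the spread (exact permutation test, two-sided p = 0.4). Among neurons they made up 15.4, 17.7 and 9.06% in the ASO mice and 11.1, 12.9 and 7.67% in the PBS mice (exact permutation test, p = 0.3). These are shares of the cells recovered after dissociation and not of the cells in the tissue. Detected genes in the median CA1 neuron at 500 UMIs were 408, 418 and 403 in the ASO mice and 404, 399.5 and 403 in the PBS mice (exact permutation test, p = 0.3). Mitochondrial transcripts made up 6.45, 5.87 and 7.83% of CA1 UMIs in the ASO mice and 6.27, 6.68 and 8.59% in the PBS mice (exact permutation test, p = 0.6). Adjusted over the 5 comparisons, these p-values were 0.5 to 0.6.

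**Figure D3:**
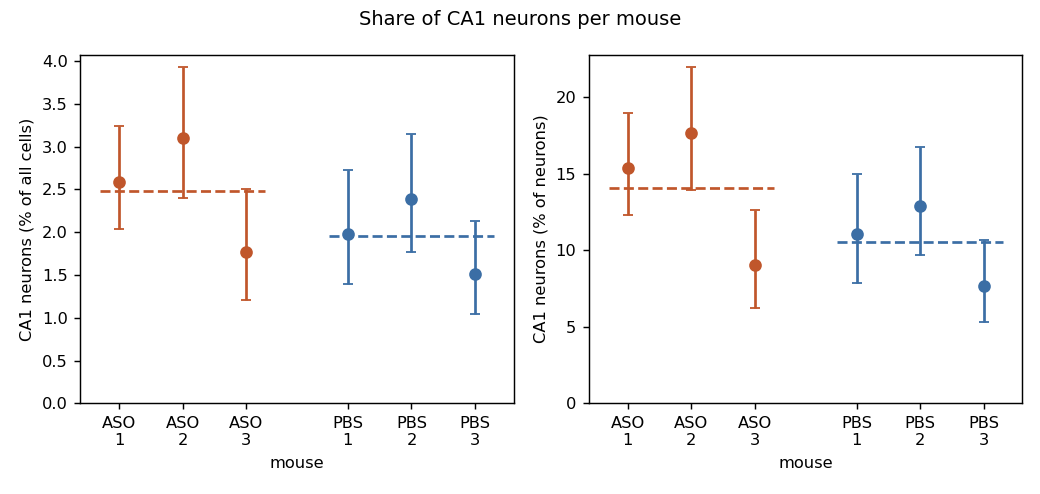
CA1 neurons as a percentage of all cells (left) and of neurons (right) in each mouse. Bars are exact binomial 95% intervals, which cover counting error only, and dashed lines are group means. ASO mouse 2 was highest at 3.10% of cells and PBS mouse 3 lowest at 1.52%, and the groups overlapped.

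The libraries also differed in a way that cut across the treatments. The ratio of the ribosomal RNA mt-Rnr2 to mt-Cytb in CA1 neurons was 6.59, 2.28 and 11.7 in the ASO mice and 9.70, 4.20 and 12.2 in the PBS mice, so equally numbered mice ranked alike. Within these 3 sets of equally numbered mice, the share of CA1 neurons in all cells differed by 0.610, 0.712 and 0.254 percentage points (ASO minus PBS, mice 1, 2 and 3), with the ASO mouse higher in each. The share among neurons differed by 4.32, 4.76 and 1.39 percentage points in the same way. Mylip differed by -4.84, -12.4 and -70.8 CPM, genes per cell by 4, 18.5 and 0, and the mitochondrial share by 0.176, -0.808 and -0.761 percentage points. The sets rest on the numbering by sample order used here. They were seen in the data and are not given by the labels, and no test was made on them for these values.

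Gene by gene, the CA1 neurons of ASO and PBS mice could not be told apart at this depth. The edgeR quasi-likelihood test was made on 943 genes with enough counts, which held 49.5% of CA1 UMIs, and it called 0 genes (0%) at an adjusted p under 0.05. DESeq2 and limma voom also called 0. At an unadjusted p under 0.05 edgeR had 45 genes (4.77%), of which 16 were higher and 29 lower in the ASO mice, DESeq2 had 10 and limma voom had 43. The mice of the groups lay apart for 85 genes (9.01%), 36 higher and 49 lower. With 3 mice a group, random assignment sets the mice of a gene apart with a probability of 0.1. Lying apart, given for single genes below, is therefore by itself no sign of a difference. Fold changes lay above 0 for 471 genes and below 0 for 472, a split that the TMM scaling sets by centring them, and their median standard error (SE) was 0.343 on the log2 scale. The lowest adjusted p was 0.587. In all, 169 neurons of 3 ASO mice were compared with 116 of 3 PBS mice. Large fitted differences also did not pass, among them Soga3 at -1.20 and Mkl2 at 1.26 (SE 0.501) on the log2 scale. The lack of calls therefore does not show that differences were absent or small.

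**Figure D4:**
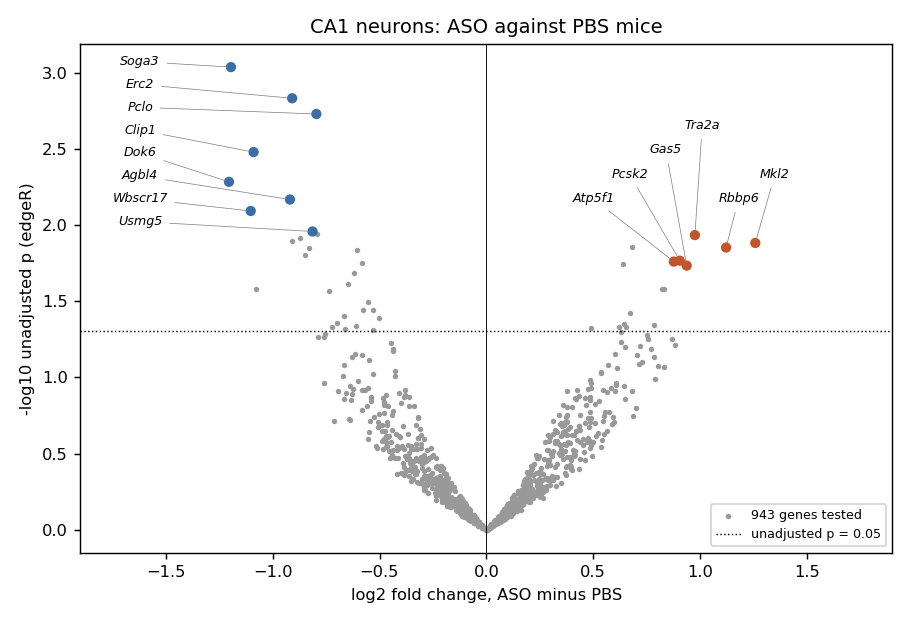
Log2 fold change (ASO minus PBS) against -log10 of the unadjusted edgeR p for the 943 genes tested in CA1 neurons. Of the 16 genes with the lowest p, 8 per direction, 14 are named, and the dotted line marks an unadjusted p of 0.05. No gene passed after adjustment, and 471 points lie above 0 and 472 below, as the TMM scaling centres them.

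The class markers were among the genes that did not pass. Log2 fold changes (ASO minus PBS) were 0.29 for Nrgn (SE 0.242), -0.11 for Camk2a (SE 0.239), -0.21 for Slc17a7 (SE 0.312), 0.08 for Neurod6 (SE 0.371) and -0.55 for Hpca (SE 0.309), each with an edgeR adjusted p of 0.971 or above. Hpca had 417, 614 and 1216 normalised CPM in the ASO mice and 758, 946 and 1193 normalised CPM in the PBS mice, with overlap. Normalised CPM are scaled to the tested genes by the TMM method and so are larger than CPM of all UMIs. Fibcd1, at 1340, 709 and 695 normalised CPM in the ASO mice and 1112, 764 and 1002 normalised CPM in the PBS mice, had a log2 fold change of 0.02 (SE 0.284). Mal2 had 857, 1063 and 811 normalised CPM in the ASO mice and 505, 618 and 668 normalised CPM in the PBS mice, with no overlap. Its difference was 0.62 on the log2 scale (SE 0.310), with an adjusted p from edgeR of 0.971.

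The 8 genes with the lowest p on the lower side included Pclo and Erc2, scaffold proteins of the presynaptic active zone where vesicles fuse. Pclo, which encodes piccolo, had 1076, 945 and 927 normalised CPM in the ASO mice and 2022, 1528 and 1670 normalised CPM in the PBS mice. Erc2, which encodes the scaffold ELKS2, had 615, 756 and 811 normalised CPM in the ASO mice and 1769, 982 and 1336 normalised CPM in the PBS mice. Both genes were apart between the groups, with all ASO mice on the lower side. Log2 fold changes were -0.80 for Pclo (SE 0.251) and -0.91 for Erc2 (SE 0.281), each with an edgeR adjusted p of 0.587. Soga3, the gene with the lowest p, had 461, 236 and 463 normalised CPM in the ASO mice and 1112, 618 and 907 normalised CPM in the PBS mice. In the fit this was a difference of -1.20 on the log2 scale (SE 0.354), with an adjusted p from edgeR of 0.587. Clip1, a protein of microtubule plus ends, Agbl4, a carboxypeptidase that shortens glutamate chains on tubulin, Dok6, an adaptor of receptor kinases, Wbscr17, a glycosyltransferase, and Usmg5, a small subunit of ATP synthase, had log2 fold changes between -1.20 and -0.81 with an edgeR adjusted p of 0.757 each. For Usmg5 the groups overlapped, since PBS mouse 1 was low at 455 normalised CPM.

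On the other side, Pcsk2, a protease that matures neuropeptides, had 527, 756 and 985 normalised CPM in the ASO mice and 303, 473 and 334 normalised CPM in the PBS mice. Its difference was 0.90 on the log2 scale (SE 0.376), with an adjusted p from edgeR of 0.757. Mkl2, a coactivator of serum response factor, and Rbbp6, a ubiquitin ligase, also lay apart, as did Pcsk2. Mkl2 had 593, 402 and 637 normalised CPM in the ASO mice and 253, 291 and 95.4 normalised CPM in the PBS mice. Rbbp6 had 747, 402 and 579 normalised CPM in the ASO mice and 253, 291 and 239 normalised CPM in the PBS mice. Tra2a, a splicing factor, Atp5f1, a subunit of ATP synthase, and Gas5, a noncoding host of small nucleolar RNAs, overlapped between the groups.

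**Figure D5:**
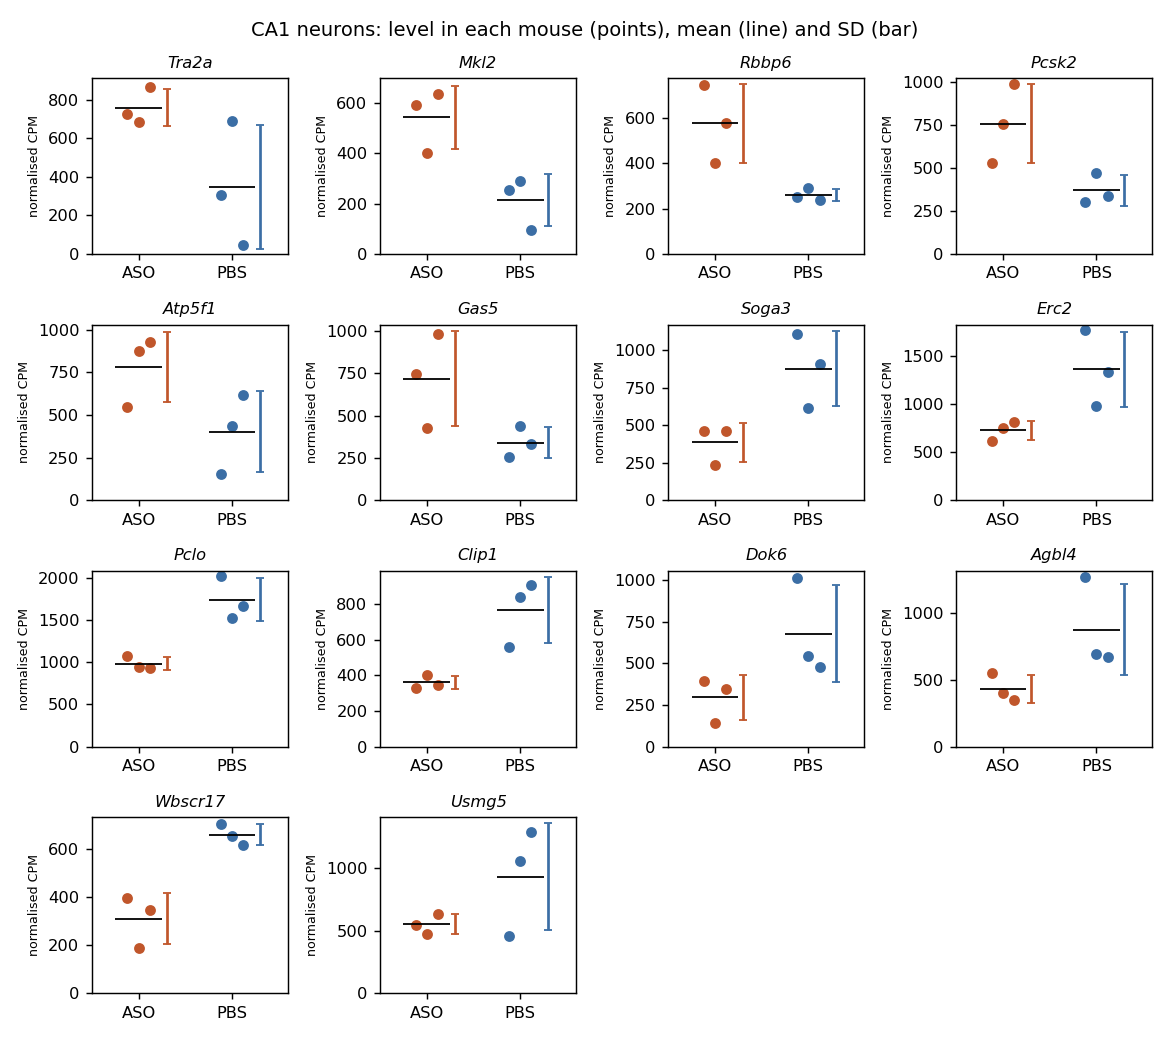
Normalised CPM in the CA1 neurons of each mouse for 14 of the 16 genes with the lowest unadjusted p, ASO left and PBS right in each panel. Points are mice, lines group means and bars the SD over 3 mice. Groups lie apart for Pclo, Erc2, Pcsk2 and Rbbp6 and overlap for Tra2a, Atp5f1, Gas5 and Usmg5, and no gene passed after adjustment.

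Gene groups of synaptic function held 0 called genes. Of 19 glutamate receptor genes 10 were tested, with 5 fold changes above and 5 below 0 and a median of 0.04 on the log2 scale, beside -8.94e-05 over all tested genes. These receptor genes summed to 10626 CPM in CA1 neurons, against 10265 CPM in dentate and 6538 CPM in subiculum neurons. Gria2, the AMPA receptor subunit that sets calcium permeability, had 6700, 6283 and 5097 normalised CPM in the ASO mice and 4802, 5712 and 5345 in the PBS mice, with overlap. Of 14 GABA receptor genes 9 were tested, with 6 above and 3 below 0 and a median of 0.04. Of 28 postsynaptic density and adhesion genes 10 were tested, 5 above and 5 below 0, with a median of -0.0023. Dlgap1, a scaffold that binds PSD-95, had 2834, 2268 and 2780 normalised CPM in the ASO mice and 4600, 3238 and 3341 in the PBS mice, with no overlap. Its difference was -0.50 on the log2 scale (SE 0.244), with an adjusted p from edgeR of 0.971.

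Calcium, vesicle and channel genes were also mixed. Of 30 calcium and calmodulin signalling genes 20 were tested, 12 above and 8 below 0, with a median of 0.13. Prkcb, the beta form of protein kinase C, had 3185, 3283 and 3533 normalised CPM in the ASO mice and 1820, 2656 and 2577 in the PBS mice, with no overlap. Its difference was 0.49 on the log2 scale (SE 0.244), with an adjusted p from edgeR of 0.971. Of 24 synaptic vesicle release genes 17 were tested, 12 above and 5 below 0, with a median of 0.13, and Pclo was the lowest at -0.80. Syt1, the calcium sensor of vesicle fusion, had a log2 fold change of 0.30 (SE 0.255). Of 31 voltage-gated channel genes 16 were tested, 7 above and 9 below 0, with a median of -0.09 and a range of -0.63 to 0.42. None of the 19 immediate early and dissociation stress genes had enough counts to be tested. Egr1, an activity-induced transcription factor, had 40 UMIs in the ASO mice and 21 UMIs in the PBS mice, which came to 198 ± 38.6 CPM in the ASO mice and 148 ± 64.9 CPM in the PBS mice (SD, n = 3 each), with overlap.

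Genes of amyloid and lipoprotein biology, to which the strain and the target belong, were few. Of 20 amyloid precursor processing genes 7 were tested, 6 above and 1 below 0, with a median of 0.16. App, the precursor itself, had a log2 fold change of 0.21 (SE 0.252). Sorl1, a sorting receptor of the amyloid precursor, had 857, 921 and 1043 normalised CPM in the ASO mice and 708, 618 and 668 normalised CPM in the PBS mice, with no overlap. Its difference was 0.48 on the log2 scale (SE 0.305), with an adjusted p from edgeR of 0.971. Of 13 lipoprotein receptor and reelin pathway genes 2 were tested, Sorl1 and the reelin adaptor Dab1, with Dab1 at -0.23 (SE 0.270). Vldlr, a reelin and lipoprotein receptor on which IDOL acts, was below the count needed, with 28 UMIs in the ASO mice and 28 UMIs in the PBS mice, which came to 141 ± 29.0 CPM in the ASO mice and 199 ± 36.0 CPM in the PBS mice (SD, n = 3 each). Of 18 sterol genes in the table only Apoe, the lipid carrier made mainly by astrocytes, was tested, at -0.03.

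Mitochondrial and ribosomal genes complete the lists. Of 35 mitochondrially encoded genes 10 were tested, 8 above and 2 below 0, with a median of 0.08, and mt-Rnr2 stood at -0.28 (SE 0.369). Of 89 nuclear genes of oxidative phosphorylation 18 were tested, 6 above and 12 below 0, with a median of -0.07. Of 86 cytosolic ribosomal protein genes 16 were tested, 6 above and 10 below 0, with a median of -0.20. The ribosomal protein genes summed to 11773 CPM in CA1 neurons, against 20994 CPM in dentate and 17203 CPM in subiculum neurons, while the mitochondrially encoded genes summed to 69495 CPM in CA1 neurons, against 44040 CPM in dentate and 48461 CPM in subiculum neurons.

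Whether the ASO effect in CA1 neurons differed from that in neighbouring excitatory neurons was tested with an edgeR interaction term and mouse as a block. Against dentate neurons 0 of 918 genes (0%) passed and 48 (5.23%) had an unadjusted p under 0.05. Against subiculum neurons 0 of 717 (0%) passed and 45 (6.28%) had an unadjusted p under 0.05. For Pclo the log2 fold change was -0.80 in CA1 neurons and 0.28 in dentate neurons (SE 0.213), and the difference of -1.08 (SE 0.313) had an edgeR adjusted p of 0.258. In subiculum neurons Pclo was at -0.56 and Erc2 at -0.89. Both genes were chosen for their low p in CA1 neurons, so these values are a description. Nlgn1, a synaptic adhesion protein that was lower in subiculum neurons of ASO mice at -1.35 (SE 0.308, adjusted p from edgeR of 0.0272), had a log2 fold change of -0.19 (SE 0.242) in CA1 neurons. The difference between the classes was 1.14 for Nlgn1 and did not pass (edgeR adjusted p = 0.323). As this comparison starts from a gene that passed in subiculum neurons, it too is a description.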

How the data were processed

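The authors deposited counts of UMIs per gene and cell, whole numbers with no normalization, for 28324 genes. Each column name gives mouse and class. The submitters' processing notes name bcl2fastq, STAR 2.5.0c and the builds mm10 and GRCm38. For counting, annotation and cell filter, tools were not given in the sources used here. Deposited cells had 569 to 1999 UMIs and at most 15.0% mitochondrial UMIs.

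Doublets were called per mouse (Scrublet, scanpy 1.11.5) and removed. Counts of CA1 neurons were summed per mouse and fitted by quasi-likelihood (filterByExpr, TMM, glmQLFit and glmQLFTest of edgeR 4.0.16, R 4.3.3), two-sided, with Benjamini-Hochberg adjustment and a threshold of 0.05. DESeq2 1.42.0 and limma voom 3.58.1 were alternatives. Interactions used mouse as a block, over sums of 2 classes. Scripts were tested on simulated data. Single values per mouse had an exact permutation test over 20 assignments. Each library is 1 mouse, and p-values measure the spread between these mice.

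Members, gene lists and tests were chosen with earlier results of these data known. Named genes were the class markers and Mylip, the 8 per direction with the lowest p, up to 4 per list with the highest level, the 15 with the largest ratio to the next class, 8 per direction against dentate and subiculum neurons, and the 10 with the highest level. Ttr and haemoglobin genes were named after their values were seen. Some genes within the rule are not reported here.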

Additional observations from a re-analysis of the deposited data

How the results depend on the processing

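Doublets kept, a mitochondrial limit of 10%, DESeq2 size factors, a robust fit, thinned totals, mixed cells left out, DESeq2, limma voom, a replicate block for the 3 sets of equally numbered mice and leaving out each mouse gave 0 called genes between ASO and PBS mice. Without a filter on low counts 4 genes passed (the haemoglobin genes Hbb-bs, Hba-a2, Hba-a1 and Hbb-bt, whose near-identical copies can share reads), and 0 when the cell with 848 haemoglobin UMIs was also left out, an alternative chosen after seeing the data. Against subiculum neurons 1 gene (Hbb-bs) passed without the filter, 0 without that cell, and the count was 0 to 1 with each mouse left out, the call being mt-Rnr2 without ASO replicate 3. Against dentate neurons each alternative gave 0. The difference in genes per cell was -19.8 when cells were not thinned, against 7.5 thinned, where median depth differed between mice. With each mouse left out, the difference in mitochondrial share ran from -1.02 to 0.241 percentage points, above 0 without PBS replicate 3. The log2 fold change of Camk2a was 0.0223 without the filter, 0.00710 with the mitochondrial limit and 0.0339 without the filter and the haemoglobin cell. For Fibcd1 it was -0.0209 with the mitochondrial limit, -0.0755 without mixed cells, -0.0559 with thinned totals, -0.0575 with the replicate block, -0.0167 in DESeq2 and -0.0346 in limma voom. For Nlgn1 it was 0.00294 without mixed cells, and for Apoe 0.107 without the filter and 0.116 without the filter and the haemoglobin cell. With each mouse left out, it ran from -0.210 to 0.121 for Camk2a (above 0 without PBS replicate 1), from -0.388 to 0.0331 for Slc17a7 (above 0 without PBS replicate 1), from -0.310 to 0.554 for Neurod6 (below 0 without ASO replicate 2, ASO replicate 3 or PBS replicate 1), from -0.402 to 0.227 for Fibcd1 (below 0 without ASO replicate 1 or PBS replicate 2), from -0.444 to 0.0258 for Dab1 and -0.648 to 0.0363 for mt-Rnr2 (both above 0 without ASO replicate 2), from -0.379 to 0.190 for Nlgn1 (above 0 without PBS replicate 1) and from -0.141 to 0.112 for Apoe (above 0 without ASO replicate 2, ASO replicate 3 or PBS replicate 1). The cause was not tested. Of 33 genes followed through these alternatives, the others kept their direction, and the lowest adjusted p of any was 0.194. The replicate block gave 0 called genes and 44 genes at an unadjusted p under 0.05. The labels give no pairs. Over 943 genes the deviations of equally numbered mice from their group means correlated at 0.0923, -0.0565 and -0.0757 (mice 1, 2 and 3). Pairs with unequal numbers ran from -0.146 to 0.186. Whether equally numbered mice share a technical batch was not tested.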

Other observations

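The spread between single CA1 neurons was described after the values were seen, with each cell thinned to 500 UMIs. The Fano factor, the variance over cells divided by the mean, had a median of 1.11 over 926 genes, where counting error alone gives 1. It was 114 for Hbb-bs, 96.2% of whose UMIs lay in 5 cells. Malat1, a nuclear noncoding RNA, had a Fano factor of 9.80 and mt-Rnr2 of 8.90. Cells of the 6 mice were pooled, so the factor includes differences between mice, whose means per cell ran from 5.55 to 9.05 UMIs in the ASO mice and 8.12 to 13.4 UMIs in the PBS mice for Malat1, and from 10.4 to 25.6 UMIs in the ASO mice and 18.7 to 30.5 UMIs in the PBS mice for mt-Rnr2. Meg3, a noncoding RNA of neurons, had 4.79, was seen in 78.2% of cells and averaged 5.51, 3.98 and 4.65 UMIs per cell in the ASO mice and 3.53, 3.81 and 3.50 UMIs per cell in the PBS mice. Among genes of neurons, Atp2b1 had 2.65, the potassium channel partner Kcnip4 had 2.32, the synaptic adhesion gene Lrrtm4 had 2.20 and the protocadherin Pcdh9 had 2.17. Kcnip4 was seen in 32.3% of cells at this depth and averaged 0.411 to 0.903 UMIs per cell in the ASO mice and 0.594 to 0.833 in the PBS mice.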
